A study of Homo sapiens with 4 samples.

Results

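Described here are 6 genes that restrain Wnt signalling: DKK1, FRZB, NOTUM, NKD1, AXIN2 and ZNRF3. They are 6 of the 14884 genes with a named probe set on the arrays, and each is represented by 1 probe set. They were chosen by their role and with their measured differences between control and verticillin A arrays already known, so those differences are described without a test and support nothing by themselves. The cells were LS411N-5FU-R, a 5-fluorouracil (5-FU) resistant derivative of the human colon carcinoma line LS411N, and the resistant line is shared by all samples. Verticillin A, a fungal epipolythiodioxopiperazine, was absent (0 nM, 2 control arrays) or present at 50 nM (2 arrays) during 3 days of culture. The series title concerns trimethylation of histone H3 lysine 9, FAS silencing and 5-FU resistance, and the 1 comparison asks which transcripts differ after verticillin A. Whether the resistant line is a clone is not given in the sources used here. The labels do not say if replicate arrays stem from separate cultures, and the spread behind each p-value can therefore be technical.

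Wnt proteins bind Frizzled receptors and the co-receptors LRP5 and LRP6, which stops the destruction of beta-catenin and lets it act with TCF/LEF factors on target genes. In the intestinal crypt this signal maintains stem cells, and in most colorectal carcinomas mutations downstream of the receptors keep it active. The pathway is curbed outside the cell by secreted antagonists such as DKK1, FRZB and NOTUM, at the membrane by ubiquitin ligases such as ZNRF3, and in the cytoplasm by NKD1 and AXIN2. Several of these restraints (NKD1, NOTUM, AXIN2, ZNRF3 and, in many cells, DKK1) are themselves targets of beta-catenin and form negative feedback.

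Levels are the authors' log2 expression values from the GCRMA method, and a log2 difference is the verticillin A mean minus the control mean. The 6 genes went in different directions with verticillin A. The secreted antagonists DKK1 and FRZB were 2.13-fold and 2.29-fold higher, NKD1 was 2.31-fold and NOTUM 1.87-fold lower, and AXIN2 and ZNRF3 differed by 0.11 and -0.01 on the log2 scale. For 5 of the 6 genes the treated pair of arrays lay wholly above (3 genes) or wholly below (2 genes) the control pair. The same was so for 54.8% of all genes tested, and nothing is read from the count.

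**Figure D1:**
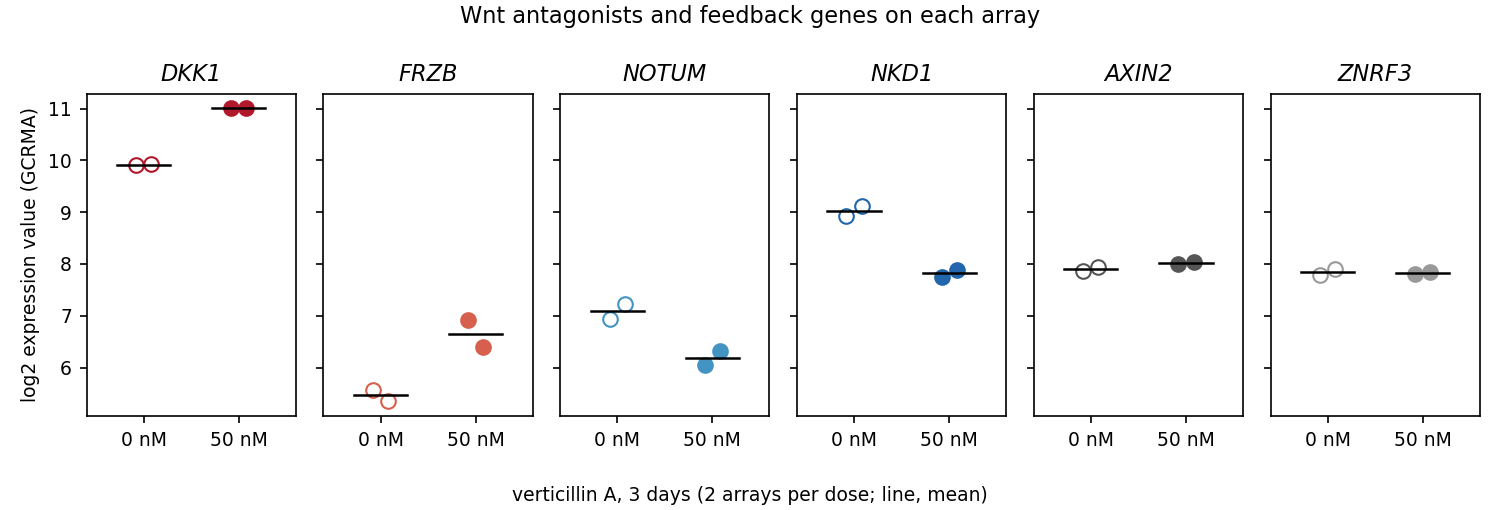
Log2 expression value (vertical axis) of each of the 6 genes on the 2 control arrays (0 nM, open circles) and the 2 verticillin A arrays (50 nM, filled circles), with a line at each group mean. DKK1 and FRZB lie higher at 50 nM, NOTUM and NKD1 lie lower, AXIN2 lies 0.11 higher on average, and the ranges of ZNRF3 overlap.

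RefSeq promoter entries (GRCh38.p14) matched 2 of the 6 genes, the secreted antagonists DKK1 and FRZB. The 250 bases before each transcription start are shown so that the upstream sequences of these 2 genes, which are those with an entry, can be compared. Capitals mark the TCF/LEF core words CTTTGA and also CTTTGT on either strand. The DKK1 stretch is chr10:52314031-52314280 on the plus strand, and the FRZB stretch is chr2:182866638-182866887 on the minus strand.
DKK1: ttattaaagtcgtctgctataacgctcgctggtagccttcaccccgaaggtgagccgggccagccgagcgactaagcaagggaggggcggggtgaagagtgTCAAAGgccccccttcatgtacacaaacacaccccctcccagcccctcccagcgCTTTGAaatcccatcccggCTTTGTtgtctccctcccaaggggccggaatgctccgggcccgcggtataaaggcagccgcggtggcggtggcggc
FRZB: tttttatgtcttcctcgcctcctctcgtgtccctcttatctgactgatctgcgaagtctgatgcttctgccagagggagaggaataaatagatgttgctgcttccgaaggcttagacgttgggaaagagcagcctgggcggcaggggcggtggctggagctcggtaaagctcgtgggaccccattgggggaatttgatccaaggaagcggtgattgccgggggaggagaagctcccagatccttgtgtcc

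The DKK1 stretch held 3 core words. They began 149, 95 and 76 bases before the start, the farthest on the opposite strand. The words at 95 and 76 bases also matched longer words, CTTTGAA for the farther and CTTTGTT for the nearer, part of a set of 4 words of 7 letters (CTTTGAA besides CTTTGAT, then CTTTGTA besides CTTTGTT) searched on both strands, which contain the core words and so overlap them. The FRZB stretch held 0 of either set. In windows of 300 bases around the start, 13.8% of 35116 RefSeq promoters and 11.2% of the 22199 at protein-coding genes held at least 1 of the longer words, and 26.2% and 22.5% held a core word. Among 54 genes of the other Wnt pathway lists with a promoter entry, 2 held a longer word, SP5 and CTBP2. A core word was held by 5 of the 54: CTBP2, FZD1, RNF43, ROR2 and SP5. A match describes letters only, and the 2 antagonists did not share it. The DKK1 stretch had a GC content of 62.8% with 18 CpG dinucleotides and the FRZB stretch 55.6% with 11, beside medians of 58% and 11 over all promoters.

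DKK1 encodes a secreted protein that binds LRP5 and LRP6 and keeps Wnt proteins from using them. Its log2 value was 9.91 and 9.92 on the control arrays and 11.01 and 11.01 on the verticillin A arrays (probe set 16705011). Both treated arrays stood above both controls, and the arrays of a group lay closer together than for any other of the 6 genes. The group means were 9.92 ± 0.005 and 11.01 ± 0.001 (SD, n = 2 per group), a log2 difference of 1.09. It was 1.09 in each of the 4 pairings of a treated with a control array. DKK1 stood in 16th position when the 14884 genes were ordered from the most positive difference down.

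FRZB encodes secreted frizzled-related protein 3, a decoy with a Frizzled-like cysteine-rich domain that binds Wnt proteins outside the cell. Its log2 value was 5.58 and 5.35 on the control arrays and 6.92 and 6.39 with verticillin A (probe set 16906175). The groups did not overlap, but the treated arrays differed from each other by 0.53, more than for any other of the 6 genes. The means of 5.46 ± 0.16 and 6.66 ± 0.37 (SD, n = 2 per group) gave a log2 difference of 1.19, and the 4 array pairings ranged from 0.82 to 1.57. In control cells FRZB lay 0.98 and 0.73 above the median of all probe sets, the lowest of the 6 genes by this measure. Without detection calls, a level this low may hold much background, and the fold can then understate the change in RNA. FRZB was in 15th position in that order, next to DKK1.

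NOTUM encodes a secreted carboxylesterase that removes the lipid of Wnt proteins that they need to bind Frizzled. It gave log2 values of 6.94 and 7.23 on the control arrays and 6.05 and 6.32 on the treated arrays (probe set 16850047). Both treated values were below both control values, with gaps of 0.29 and 0.27 inside the groups. The means were 7.08 ± 0.20 and 6.18 ± 0.19 (SD, n = 2 per group), a log2 difference of -0.90, and the 4 array pairings ranged from -1.18 to -0.62. Ordered from the most negative difference up, NOTUM was in 77th position of the 14884 genes. The 3 secreted antagonists were thus split, with DKK1 and FRZB near the top of the order and NOTUM near the bottom.

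NKD1 encodes a cytoplasmic protein that binds Dishevelled and dampens the signal below the receptor. Its log2 value was 8.93 and 9.11 in control cells and 7.75 and 7.88 after verticillin A (probe set 16818808). The treated arrays lay at least 1.05 below the control arrays in every pairing, and at most 1.36 below. The means of 9.02 ± 0.13 and 7.82 ± 0.09 (SD, n = 2 per group) differed by -1.21 on the log2 scale, in size the largest difference among the 6 genes. NKD1 stood in 28th position from the most negative difference.

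AXIN2 encodes a scaffold of the complex that marks beta-catenin for destruction, and its transcript is widely used as a readout of beta-catenin activity. It gave 7.86 and 7.94 on the control arrays and 7.99 and 8.03 on the treated arrays (probe set 16847933). Both treated values exceeded both control values, by 0.06 to 0.17 in the 4 pairings. The means were 7.90 ± 0.05 and 8.01 ± 0.03 (SD, n = 2 per group), a log2 difference of 0.11. A more positive difference was found in 23.5% of all genes.

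ZNRF3 encodes a membrane ubiquitin ligase that removes Frizzled receptors from the cell surface and is itself inhibited by R-spondins. Its log2 values were 7.78 and 7.90 in control cells and 7.81 and 7.85 after verticillin A (probe set 16928699). The treated values fell between the control values, so the groups overlapped. The means of 7.84 ± 0.08 and 7.83 ± 0.03 (SD, n = 2 per group) differed by -0.01, a sign that turned under median centring (0.03) and a further quantile normalization (0.02). ZNRF3-AS1, an antisense transcript of the locus, gave 3.79 to 3.82 in control and 3.84 to 3.92 in treated cells (limma adjusted p = 0.604). Those levels lay below the median of all probe sets on every array and may be mostly background. Whether the labelling kept strand is not given in the sources used here.

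**Figure D2:**
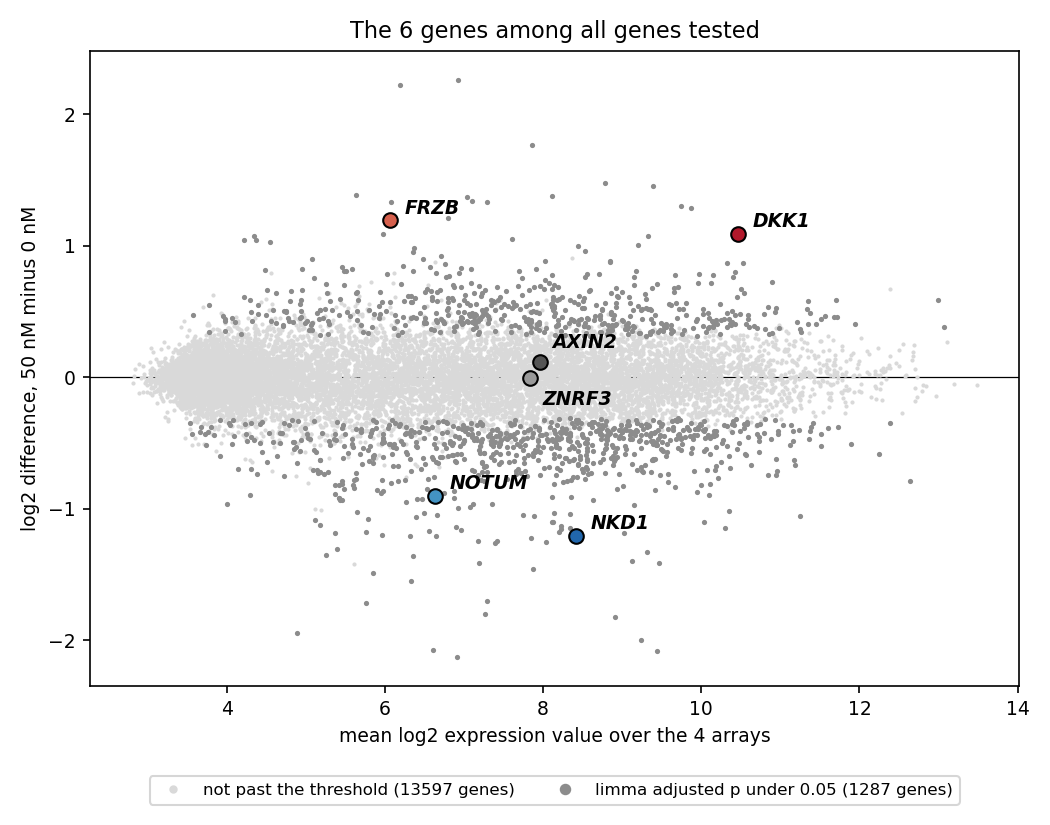
Log2 difference (50 nM minus 0 nM, vertical axis) against the mean log2 value over the 4 arrays (horizontal axis) for 14884 genes, with the 6 genes marked. DKK1 and FRZB lie above 1, NKD1 lies below -1, NOTUM lies at -0.90, and AXIN2 and ZNRF3 lie within the mass of genes near 0.

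A difference of 1 or more on the log2 scale was rare on these arrays, with 24 genes that much higher and 59 that much lower. DKK1, FRZB and NKD1 belong to these 83 genes. All 4 arrays shared nearly the same distribution, with medians of 4.59 to 4.62 over all probe sets, and arrays of different groups correlated at 0.990 to 0.992 across probe sets.

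The remaining Wnt pathway genes were read from the same limma fit, in 7 lists arranged by role, with the 6 genes left out. A gene is called, or said to rise or fall, where limma's moderated test gives a p under 0.05 after Benjamini-Hochberg adjustment over all 14884 genes. In all, 77 of the 129 listed genes were measured, and 2 were called higher and 12 lower, which is 18.2% of them beside 8.65% of all genes (3.55% higher and 5.10% lower). Their median log2 difference was -0.06 beside -0.01 over all genes. The lists were chosen with earlier results of these data known. These shares, and those of the single lists below, are therefore a description, and no list was tested as a set. In this fit 3970 of the 14884 genes, and 28 of the 77 Wnt genes, had an unadjusted limma p under 0.05. Unadjusted counts of single lists below are to be read beside that share. Calls over all genes numbered 528 higher and 759 lower. Under median centring they numbered 750 higher and 668 lower, and the Wnt genes 3 higher and 11 lower. Leaving out an array leaves 1 array in its group and 1 residual degree of freedom, and the lone array is then assumed to vary as the other group does, so fewer calls there do not show how stable the calls are. No gene of the table was called by limma without control replicate 1 (3715 genes at an unadjusted p under 0.05, 28 of them among the 77 Wnt genes), nor without control replicate 2 (3528 and 24). Without verticillin A replicate 1 or replicate 2, 3 Wnt genes were lower and 0 higher each time.

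**Figure D3:**
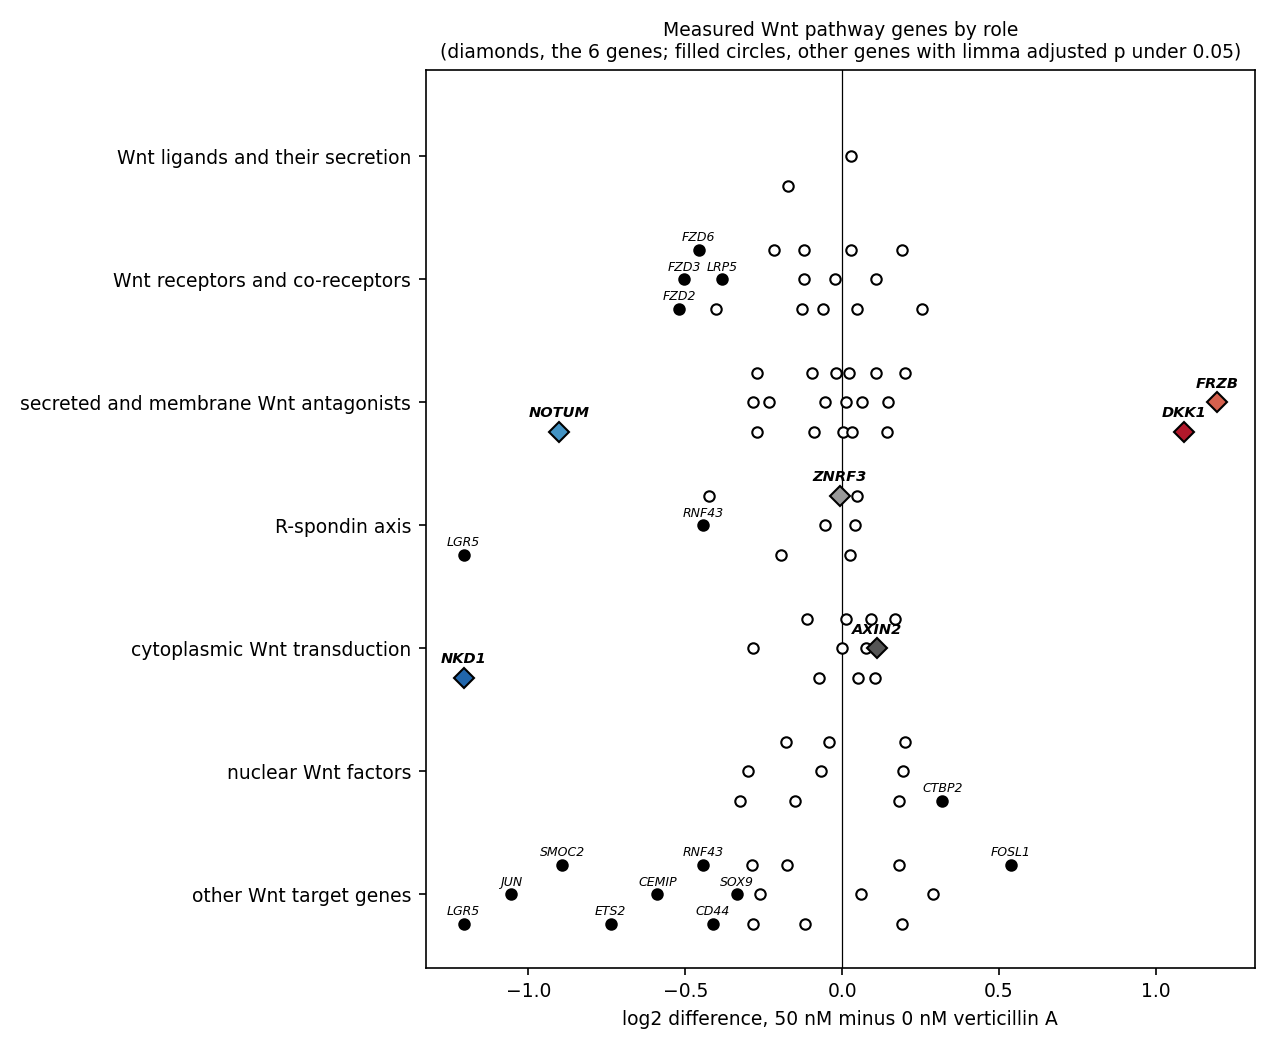
Log2 difference (50 nM minus 0 nM, horizontal axis) of every measured gene of the 7 Wnt lists (rows), with filled circles for genes past the limma threshold, open circles for the others and diamonds for the 6 genes, which carry no test. The called receptors FZD2, FZD3, FZD6 and LRP5 lie between -0.52 and -0.38, while the antagonists other than DKK1, FRZB and NOTUM lie between -0.29 and 0.20.

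Among ligands, WNT2 and the Wnt secretion factor WLS were measured, and limma called 0 of the 2, with 1 at an unadjusted p under 0.05. WNT2 gave a log2 difference of 0.03 ± 0.07 (SE here and below) and WLS -0.17 ± 0.07 (adjusted p = 0.851 and 0.177). The other 19 genes of that list were not analysed here.

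Receptor genes were partly lower. Of 16 measured, 4 fell and 0 rose, with a median log2 difference of -0.12. The Frizzled genes FZD2, FZD3 and FZD6 fell by 0.52 ± 0.08, 0.50 ± 0.08 and 0.46 ± 0.07, and LRP5, the co-receptor that DKK1 binds, fell by 0.38 ± 0.08 (limma adjusted p = 0.0248, 0.0302, 0.0246 and 0.0428). With the replicate number as a block, FZD6 and LRP5 were not past the threshold (limma adjusted p = 0.0523 and 0.0716). FZD2 and FZD3 still passed with it (limma adjusted p = 0.0486 and 0.048). LRP5 went from 8.58 ± 0.09 to 8.20 ± 0.02 (SD, n = 2 per group). LRP6, its close relative, gave 9.46 and 9.58 in control and 9.38 and 9.41 in treated cells, a log2 difference of -0.12 that was not past the threshold (adjusted p = 0.39). LRP6 was singled out once its values were known.

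Of 17 other secreted and membrane antagonists limma called 0, and their median log2 difference was 0.00. At an unadjusted p under 0.05 there were 2 of the 17, beside 3970 of all 14884 genes. APCDD1, a membrane Wnt inhibitor, and IGFBP4 had the largest differences, -0.29 ± 0.10 and -0.27 ± 0.07 (adjusted p = 0.157 and 0.0746). APCDD1 lay at 4.08 to 4.51, below the median of all probe sets on every array, where values may be mostly background. IGFBP4 passed with a trended prior variance (adjusted p = 0.0463) and with the dimmest 50% of genes left out (0.0209). The paralogues of DKK1 had log2 differences of 0.00 (DKK2), 0.20 (DKK3) and -0.10 (DKK4), and those of FRZB 0.02 (SFRP1), 0.14 (SFRP2), -0.06 (SFRP4) and -0.27 (SFRP5). All of these 7 were measured at group means of 3.45 to 4.29, below the median of all probe sets, and 0 passed in limma. Whether DKK1 and FRZB differ from their paralogues in response was not tested.

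The R-spondins, their receptors and the ligases held 8 other measured genes, of which 2 fell and 0 rose (median -0.12). LGR5, the R-spondin receptor and crypt stem cell marker, gave 7.34 and 7.15 in control and 5.91 and 6.17 in treated cells, a difference of -1.21 ± 0.12 (limma adjusted p = 0.0113). RNF43, the paralogue of ZNRF3 with the same role in clearing Frizzled, gave 9.63 and 9.78 in control cells and 9.27 and 9.25 after verticillin A. It fell by 0.44 ± 0.08 (limma adjusted p = 0.0339), a call lost with the replicate number as a block (0.0631). RNF43 was thus lower while ZNRF3 differed by -0.01, and the difference between the paralogues was not tested.

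In the cytoplasm, limma called 0 of 10 other measured genes, with a median of 0.03. An unadjusted p under 0.05 was found for 0 of the 10, beside 3970 of all 14884 genes. AXIN1, the paralogue of AXIN2, and the tumour suppressor APC had the largest differences, -0.28 ± 0.12 and 0.17 ± 0.07 (adjusted p = 0.194 and 0.225). NKD2, the paralogue of NKD1, gave 5.20 and 5.37 in control and 5.40 and 5.38 in treated cells, a difference of 0.10 ± 0.08 (adjusted p = 0.507). CTNNB1, which encodes beta-catenin, and the Dishevelled genes were not analysed here.

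Of 10 nuclear factors 1 rose and 0 fell (median -0.05). CTBP2, a transcriptional co-repressor, rose by 0.32 ± 0.07 (limma adjusted p = 0.0486), a call lost with a trended prior (0.07). The call was also lost with the replicate number as a block (limma adjusted p = 0.0888). Among 18 other Wnt target genes, 8 fell and 1 rose, with a median log2 difference of -0.29. The largest falls after LGR5 were those of JUN, an AP-1 subunit (-1.06 ± 0.08), SMOC2, a matricellular protein of crypt stem cells (-0.89 ± 0.07), the transcription factor ETS2 (-0.74 ± 0.07) and the hyaluronan-binding protein CEMIP (-0.59 ± 0.07). SMOC2 gave 5.77 and 5.85 in control and 4.90 and 4.94 in treated cells, the latter close to the median of all probe sets. Values that low may hold much background, so the size of its fall is uncertain. FOSL1, another AP-1 subunit, rose by 0.54 ± 0.07 (limma adjusted p = 0.0199). The other 3 called genes were RNF43, CD44 and SOX9, of which CD44 and SOX9 fell by 0.41 and 0.34. The SOX9 call was lost under median centring (limma adjusted p = 0.0516). With the replicate number as a block, CD44 and SOX9 were not past the threshold (limma adjusted p = 0.06 and 0.0892). Many of these targets answer to other pathways too, JUN, FOSL1 and ETS2 among them. MYC and CCND1, classic targets singled out, like CD44 and SOX9, once their values were known, did not pass, at -0.29 ± 0.07 and 0.29 ± 0.07 (limma adjusted p = 0.0591 and 0.0697). Both passed with a trended prior (limma adjusted p = 0.00466 and 0.0046) and with the dimmest 50% of genes left out (0.0152 and 0.0197), and CCND1 also under median centring (0.0447). In CCND1 the sign was that of AXIN2, and in MYC that of NKD1 and NOTUM.

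The nearest measured gene on each side of the 6 in RefSeq order was examined as well. Of these 12, 3 passed in limma, beside 8.65% of all genes, and nothing is read from so small a count. PRKG1-AS1, a non-coding RNA gene adjacent to DKK1, gave 4.99 and 5.10 in control and 5.84 and 5.92 in treated cells. It rose by 0.83 ± 0.08 (limma adjusted p = 0.00961), in the same direction as DKK1. PCDH15, the nearest measured gene on the other side of DKK1 and 14 annotated genes away, differed by -0.05 (adjusted p = 0.762). CENPX, which lies 4 annotated genes from NOTUM, rose by 0.56 ± 0.07 (limma adjusted p = 0.0181) where NOTUM was lower, and MYADML2 on its other side had a difference of -0.30 ± 0.08 (adjusted p = 0.0797). XBP1, a transcription factor of the unfolded protein response and 3 annotated genes from ZNRF3, fell by 0.74 ± 0.07 (limma adjusted p = 0.0093). BRD7 and SNX20, 6 and 2 annotated genes from NKD1, had differences of 0.08 and 0.06. For RGS9 and APOH, 3 and 8 annotated genes from AXIN2, they were 0.18 and 0.02. Several neighbours lay below the median of all probe sets on every array: PCDH15 (3.39 to 3.53), SNX20 (3.46 to 3.61), APOH (3.76 to 4.03) and MYADML2 (3.82 to 4.22). Without detection calls, values this low may be mostly background, and their differences do not show whether the RNA changed. ITPRID2 and NCKAP1, 12 and 3 annotated genes from FRZB, had differences of -0.22 and -0.10 (limma adjusted p = 0.0996 and 0.433). ITPRID2 passed with a trended prior (0.00348) and with dim genes left out (0.03).

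Genes with the most similar pattern were found by the root-mean-square difference of mean-centred log2 values over the 4 arrays, a description that mainly picks genes of equal difference. Nearest to DKK1 were SFN, DCLK1 and SH3RF2, at 0.066 to 0.071, and nearest to FRZB were KRTAP10-1, DCLK1 and CD68, at 0.11 to 0.21. OLFM2, LOC100129034 and TMEM150C came closest to NKD1 (0.030 to 0.043), and IFITM1, NNT and ARSD to NOTUM (0.021 to 0.041). For AXIN2 they were ODAD3, C22orf23 and TRIP12, and for ZNRF3 they were U2AF1, LBP and TECPR1, at 0.0064 or less. A limit of 0.1, set after the values were seen, held 9 genes around DKK1, 0 around FRZB, 18 around NOTUM and 21 around NKD1, but 6405 around AXIN2 and 7171 around ZNRF3, whose flat patterns were common.

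All samples are cultures of the LS411N-5FU-R line, so other cell types are not part of the design. Markers of colonic epithelium, fibroblasts, leukocytes and endothelium were read as a description. Of 11 measured colonic epithelial markers, EPCAM, KRT8, KRT18, KRT19 and KLF5 lay more than 1 above the array median on every array, while CDX1, CDX2, KRT20, VIL1, CEACAM5 and GPA33 did not. The summed epithelial level was 12.21 to 12.28 in control and 12.18 to 12.20 in treated cells on the log2 scale. In that list VIL1 fell and KRT19 rose in limma. The KRT19 call was lost with the replicate number as a block (limma adjusted p = 0.0794). All 3 measured fibroblast, 2 leukocyte and 4 endothelial markers stayed between 3.38 and 4.65, and 0 of these 9 passed in limma. An unadjusted p under 0.05 was found for 0 of the 9, beside 3970 of all 14884 genes. In these bulk samples fewer cells of a kind and less RNA per cell cannot be told apart.

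**Figure D4:**
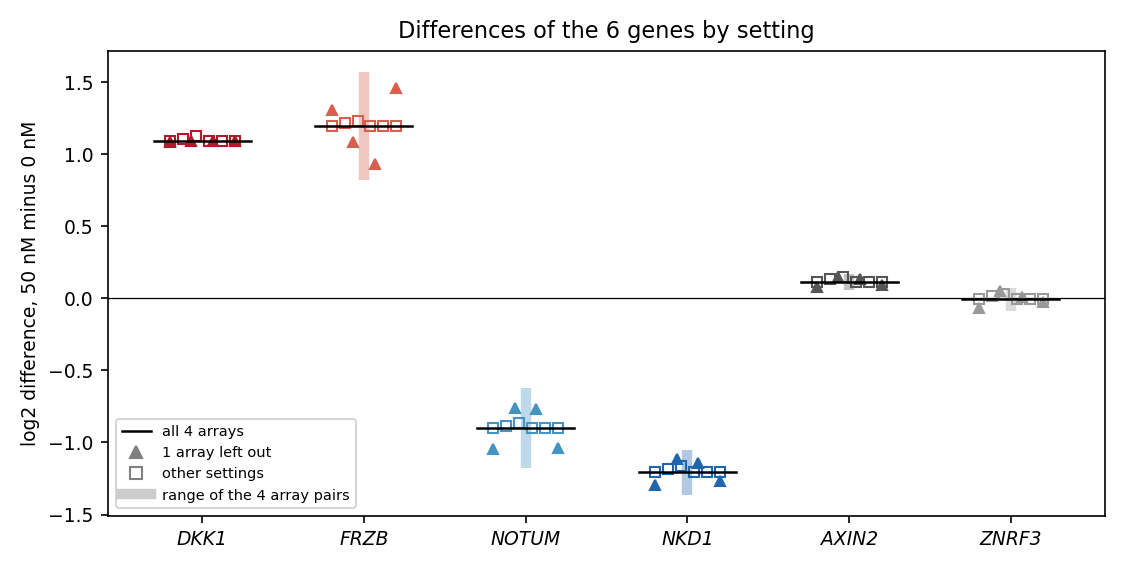
Log2 difference (50 nM minus 0 nM, vertical axis) of the 6 genes with all 4 arrays (line), with 1 array left out (triangles), under the other settings (squares) and over the 4 pairings of a treated with a control array (bar). DKK1 and FRZB stay above 0 and NOTUM and NKD1 below it throughout, FRZB has the widest bar (0.82 to 1.57), and ZNRF3 crosses 0.

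With 1 array left out, DKK1 stayed at 1.09, FRZB ranged from 0.93 to 1.46, NOTUM from -1.05 to -0.76 and NKD1 from -1.30 to -1.11. AXIN2 ranged from 0.08 to 0.15, and ZNRF3 changed sign, from -0.07 to 0.05. The value of FRZB depended most on the treated arrays, being lowest without verticillin A replicate 1 and highest without verticillin A replicate 2.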

How the data were processed

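The authors deposited 1 log2 value per probe set and array for 4 Affymetrix whole-transcript arrays, and GCRMA is named in the submitters' processing notes. GCRMA as commonly run makes the arrays' distributions alike, so a shift in total RNA per cell would be hidden. The version, annotation and build were not given in the sources used here. Of 53617 probe sets, 16098 carry a gene symbol in the platform annotation used here. Symbols were updated through the RefSeq gene table of GRCh38.p14, and each of 14884 genes was represented by its probe set with the highest mean. limma 3.58.1 in R 4.3.3 (lmFit, eBayes, 2 residual and 3.43 prior degrees of freedom) was fitted on all genes, with Benjamini-Hochberg adjustment and a threshold of 0.05. The step was tested on simulated independent arrays, with variances drawn from the prior that limma fitted. That setting meets limma's assumptions, so it does not bear on technical replicates or shared batches. The members and the Wnt lists were chosen with earlier results of these data known, so the members received no test. Genes were named by this rule: the 6 members, their paralogues, up to 6 called genes per list (otherwise up to 2 with the largest difference), the 3 genes most alike to each member, and the nearest measured neighbour on each side. LRP6, CD44, SOX9, MYC and CCND1 were named outside it, after their values were seen, and cell type markers come from a list of their own. Alternatives were averaged probe sets, a further quantile normalization, median centring, a filter on dim genes, a trended prior, the replicate number as a block, every probe set as a feature, and each array left out.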

Additional observations from a re-analysis of the deposited data

How the results depend on the processing

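The number of arrays, 2 per group, limits every value, and no signal over background was used. Centring moved all log2 differences up by 0.04, and DKK1 from 1.09 to 1.13 (1.11 after a further quantile normalization), more than its very small spread. The other 5 genes moved by less than 1 SD (pooled over the groups) under centring and the further quantile normalization. With 1 array left out, groups of 2 arrays keep the move within that SD by construction. Averaged probe sets, the dim filter, the trended prior and the block leave the differences of these genes unchanged. Those settings therefore do not show how stable the differences are. Genes called higher and lower numbered 1070 and 1329 with the dimmest 50% of genes left out, 1067 and 1361 with a trended prior, 20 and 29 with every probe set as a feature, and 228 and 364 with the replicate number as a block, which left 1 higher and 7 lower among the other Wnt genes. Of 19 called genes tracked by name, 7 were not past the threshold with it: FZD6, LRP5, RNF43, CTBP2, CD44, SOX9 and KRT19 (limma adjusted p = 0.0523, 0.0716, 0.0631, 0.0888, 0.06, 0.0892 and 0.0794). The labels do not say whether arrays with the same replicate number were cultured or processed together. Across genes, their deviations from the group means correlated at 0.01 between the groups, which cannot settle whether they form pairs. With 1 array left out, calls ranged from 0 to 52 higher and 0 to 105 lower, and Wnt genes from 0 to 0 higher and 0 to 3 lower. The 19 called genes kept their direction in every setting that measured them, but this was nearly fixed in advance. The trended prior, the block and the dim filter leave each difference as it was, and centring moved it by 0.04. Leaving out 1 array cannot reverse a difference between groups that do not overlap. In the 250 bases before the start alone, 12.0% of promoters held a longer TCF/LEF word.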
